A study of Mus musculus with 12 samples.

Results

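The transcripts of 10 *Bcl2* family genes were followed in the ventral spinal cord of mouse embryos at E12.5. They were taken by name, with earlier results of these data known, and are well known regulators of mitochondrial cell death: *Bcl2*, *Bcl2l1* and *Mcl1*, which promote survival, the effectors *Bax* and *Bak1*, and the BH3-only genes *Hrk*, *Bcl2l11*, *Bbc3*, *Bid* and *Bad*. All 10 were among the 45777 genes listed, and all 10 passed the filter on low values. The 12 libraries were 3 from *Isl2* +/- embryos (Het) and 3 from *Isl2* -/- embryos (KO) from brachial cord, and as many of each genotype from lumbar cord. Het embryos served as the controls, so every embryo lacked at least 1 working *Isl2* allele and no wild type was compared. The null allele is carried in every cell of the embryo from the start. The tissue was ventral cord dissected around the fluorescence of *Hb9::GFP*, a reporter of motor neurons (MNs), and was not sorted, so that each value is a mean over MNs, progenitors, interneurons and other cells. By the study's methods the libraries of a group were from separate animals, and the methods give only one number of animals per genotype for both levels together, so brachial and lumbar libraries may have shared embryos. The comparison of levels takes the libraries as independent.

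Proteins of this family meet at the outer mitochondrial membrane. Bax and Bak open it and release cytochrome c, which assembles the apoptosome and activates caspases, while Bcl2, Bcl-xL (from *Bcl2l1*) and Mcl1 hold them in check. BH3-only proteins start the process, as they bind the pro-survival proteins, and some of them the effectors, through the BH3 helix that gives them their name. Many MNs die in the embryo around the time their axons reach muscle, and mice without *Bax* keep MNs that would otherwise be lost. Isl2 is a LIM homeodomain transcription factor of postmitotic MNs.

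The BH3 core is what the proteins of all 10 genes share, and the bases that encode it are shown for this reason. Each line gives 42 bases of the coding strand, with capitals for the leucine codon and, after 3 further codons, for the small-residue (glycine, alanine or serine) and aspartate codons.
Bcl2: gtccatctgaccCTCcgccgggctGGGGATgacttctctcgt
Bcl2l1: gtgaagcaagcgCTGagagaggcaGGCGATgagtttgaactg
Mcl1: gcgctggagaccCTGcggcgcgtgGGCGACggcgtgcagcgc
Bax: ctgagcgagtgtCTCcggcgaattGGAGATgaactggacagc
Bak1: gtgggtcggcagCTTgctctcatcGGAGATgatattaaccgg
Hrk: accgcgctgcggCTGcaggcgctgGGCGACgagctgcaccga
Bcl2l11: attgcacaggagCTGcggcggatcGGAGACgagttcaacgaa
Bbc3: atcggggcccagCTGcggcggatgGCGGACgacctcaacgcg
Bid: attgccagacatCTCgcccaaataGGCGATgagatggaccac
Bad: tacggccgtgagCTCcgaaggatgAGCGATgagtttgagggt
In the principal coding region of each of the 10 genes (GENCODE vM21, on GRCm38, the assembly also called mm10) this core occurred exactly once. Over 21894 principal coding regions, 33.4% held it at least once and 23.1% held it once, and among the 9203 that were no longer than that of *Mcl1*, the longest here, 17.1% held it, so that the letters alone do not mark the family. The small residue was glycine in 8 genes, alanine in *Bbc3* and serine in *Bad*. Of the 42 bases of *Hrk*, 25 were the same in *Bcl2l11*, 24 in *Bbc3* and 23 in *Mcl1*, against 17 to 20 in the other six. Every window lay within 1 coding exon. In the order shown the windows were at chr1:106712572-106712613 (minus strand), chr2:152829694-152829735 (minus strand), chr3:95659424-95659465 (plus strand), chr7:45465994-45466035 (minus strand), chr17:27022528-27022569 (minus strand), chr5:118169879-118169920 (plus strand), chr2:128147138-128147179 (plus strand), chr7:16313761-16313802 (plus strand), chr6:120897286-120897327 (minus strand) and chr19:6950780-6950821 (plus strand). *Hrk* encodes the shortest protein with 92 codons and *Mcl1* the longest with 331.

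The libraries rested on 4.48 to 6.64 Gb of aligned sequence. The deposited values were TPM, a relative abundance per length of transcript, and they were divided by a size factor per library; all levels here are in these rescaled TPM. *Isl2* RNA was still detected in KO, in gene totals that do not single out the deleted part. It was 8.29 to 9.68 in the brachial Het and 4.46 to 7.25 in the brachial KO libraries, and 8.40 to 10.3 against 6.51 to 8.21 at the lumbar level, so that in rescaled TPM the genotypes did not overlap at either level. With TPM as deposited they overlapped at the brachial level. Of all genes tested, 10.4% were lower in brachial KO and 5.52% in lumbar KO without overlap. All 10 MN markers, among them *Mnx1* and *Chat*, passed the filter on low values, whereas skeletal muscle markers summed to at most 0.717 in any library and 1 of 5 of them was at 0 throughout. Brachial KO replicate 3 stood apart: it had the least sequence, the lowest *Isl2*, and a summed level of 5 blood markers of 5418 against 1894 to 4039 in the other libraries. Brachial KO replicate 2 had the largest size factor, 1.25 against 0.896 to 1.09 in the other libraries. In it 5 small noncoding RNAs, among them *Rn7sk*, made up 23.7% of deposited TPM, against 30.9% to 38.2% in the others. Read from *Ddx3y*, a gene of the Y chromosome, the libraries were 2 male and 1 female in each group except lumbar Het, with 1 male and 2 female, so that the brachial and lumbar Het libraries cannot all be of the same 3 embryos if the labels hold.

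The 10 genes spanned more than an order of magnitude in level and kept nearly the same order in every library. *Mcl1* was the highest in 12 of 12 libraries, with 85.0 to 109, and *Bax* the second with 60.1 to 83.0, and these ranges did not overlap. *Bcl2l1* came next at 37.1 to 54.3, followed by *Bad* at 27.4 to 37.5. These neighbours overlapped narrowly in range but kept their order within all 12 libraries. *Bid* (11.3 to 17.6) and *Bbc3* (8.98 to 17.7) did not differ beyond their spread, with *Bid* above *Bbc3* in 7 of 12 libraries. *Bak1* (8.11 to 11.2) was below both and above *Bcl2* (6.41 to 9.57) in 12 of 12 libraries. At the low end *Bcl2* exceeded *Bcl2l11* (4.92 to 7.89) in 11 of 12, and *Bcl2l11* exceeded *Hrk* (2.70 to 8.07) in 5 of 12 libraries. *Hrk* ranked 9th in all 3 libraries of the brachial Het group and of the lumbar Het group, but last in all 3 of the lumbar KO group and in 2 of 3 of the brachial KO group. Over the 12 libraries *Hrk* had a coefficient of variation (SD over mean) of 27.7%, which includes the differences between groups, against 7.71% for *Mcl1* and 8.06% for *Bax*. Within groups that of *Hrk* ran from 4.54% in lumbar Het, where *Bcl2l1* had 17.5%, to 28.4% in brachial KO, and in lumbar KO it was 26.95% beside 30.4% for *Bbc3*.

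**Figure D1:**
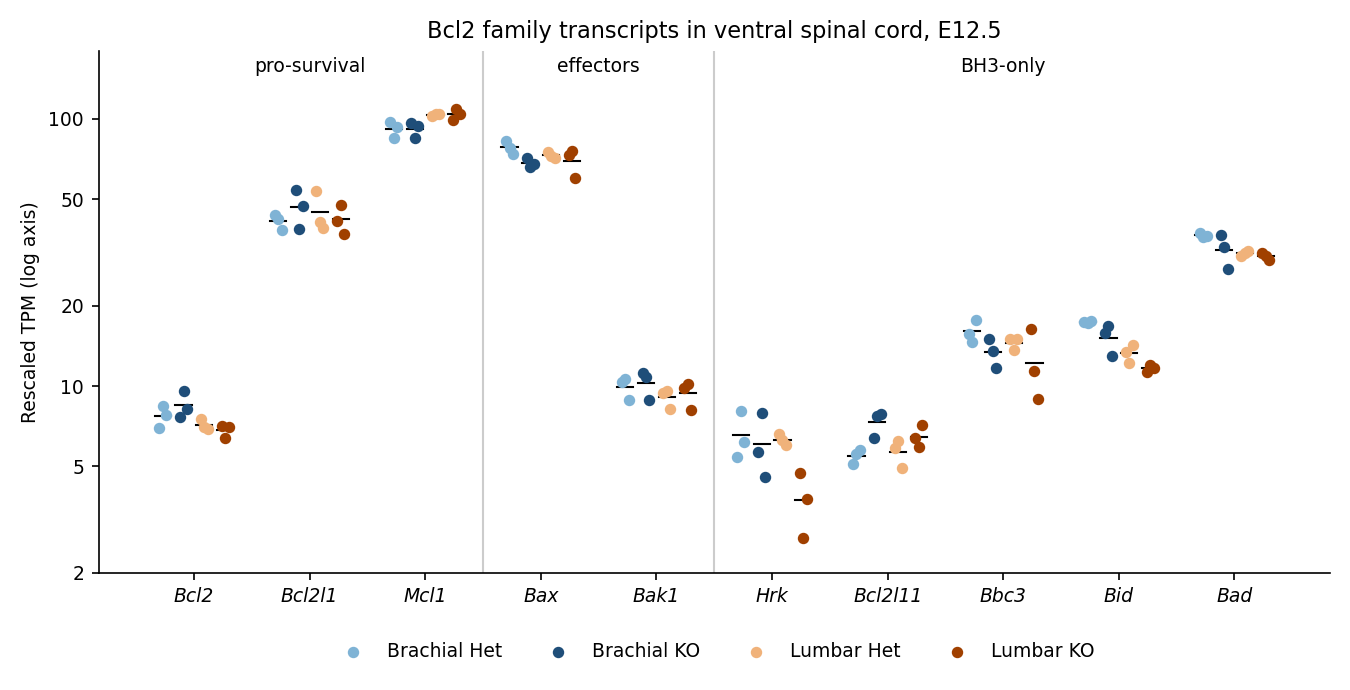
Rescaled TPM (log axis) of the 10 genes in each of the 12 libraries, grouped by role; points are libraries, colours are the 4 groups and black bars are group means (n = 3). Mcl1 lies on top at 85.0 to 109 and Hrk at the bottom, where the 3 lumbar KO points (2.70 to 4.71) sit under the other 3 groups except for 1 brachial KO library at 4.56.

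Whether loss of *Isl2* changes these genes was asked separately at each level. At the lumbar level the BH3-only gene *Hrk* was lower in KO, and no other member passed the call rule, a log2 difference beyond 0.5 with an unadjusted p under 0.05 (p here from limma). The study set these limits for genes lower in KO, and they are used here in both directions. *Hrk* (Gene ID 12123, chr5:118169764-118189478), also called Dp5 or harakiri, was identified in neurons deprived of nerve growth factor and is induced there through JNK signalling. Its level was 6.59, 6.26 and 6.02 in the 3 lumbar Het libraries and 4.71, 2.70 and 3.78 in the 3 lumbar KO libraries. All KO libraries were below all Het libraries, and the KO values were spread more widely. The log2 difference was -0.77 ± 0.20 (SE, n = 3 against 3; 95% interval -1.23 to -0.31), which puts KO at 58.5% of Het. Of all 16620 genes tested, 0.794% were called lower by the same rule and 0.981% higher. The adjusted p of limma for *Hrk* was 0.978, 0% of genes had an adjusted p under 0.05, and the two-sided exact permutation p was 0.1, the smallest that 3 against 3 allows. *Hrk* stands on the study's own list of lumbar genes lower in KO, drawn up on these same libraries, so its direction here is not independent evidence. With the library of lowest *Hrk*, lumbar KO replicate 2, left out, the log2 difference was -0.56 and still passed the rule. *Hrk* was the 1 of 10 members with an unadjusted p under 0.05 at this level, against 4.86% of all genes.

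The differences of MN markers had the same sign. All 10 were below 0 in the lumbar comparison (median log2 difference -0.33), 2 of them (*Prph* and *Etv4*) passed the rule, and their summed level was 341 to 447 in Het and 258 to 369 in KO. At the brachial level the sum was 652 to 669 in Het and 584 to 607 in KO, with 5 of 10 markers below 0, and without *Prph* and *Etv4* it was 320 to 329 in Het and 296 to 349 in KO, which overlapped. Divided by this sum, *Hrk* was 1.47 to 1.84 per 100 TPM of markers in lumbar Het and 0.733, 1.46 and 1.51 in lumbar KO, so that the groups overlapped. With *Prph* and *Etv4* left out of the sum the ratio was 1.83 to 2.34 in Het and 0.815, 1.73 and 1.76 in KO, and the groups did not overlap. These 2 are the markers that passed the rule, and both are on the study's list of lumbar genes lower in KO. Leaving them out was thus not independent of these data. Lumbar KO replicate 2, with the lowest *Hrk*, had the highest MN marker sum of the lumbar KO libraries. In bulk tissue fewer cells of a type and less RNA per cell cannot be told apart, and the part of the markers in the *Hrk* result was not tested further. Of 6 ventral progenitor markers 3 were below 0 and 3 above in lumbar cord (median log2 difference 0.03), and 0 passed the rule. The 2 with an unadjusted p under 0.05 by limma (*Sox2* and *Hes5*) were both higher in KO, with no overlap. Of all genes, 4.42% were higher in lumbar KO without overlap. The summed level of the 6 was 1559 to 1881 in lumbar Het and 1406 to 1795 in lumbar KO, which overlapped, but most of it was *Fabp7*. Without *Fabp7*, left out after its values were seen, the other 5 summed to 187 to 208 in lumbar Het and 221 to 248 in lumbar KO, with KO higher and no overlap. Most of this sum was *Sox2* and *Hes5*. The mean of *Nkx2-2* was also higher in KO (2.13 against 1.29), but those of *Olig2* (2.44 against 2.74) and *Nkx6-1* (6.31 against 7.06) were lower. All 5 blood markers were above 0 in KO at both levels (median log2 difference 0.42 lumbar and 0.48 brachial), none past the rule, and their lumbar sums overlapped at 1912 to 3083 in Het and 2492 to 4039 in KO. The part of these lists in the *Hrk* result was not tested either.

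At the brachial level *Hrk* did not pass the rule. It was 5.41, 8.07 and 6.20 in Het and 5.67, 7.92 and 4.56 in KO, and the genotypes overlapped almost fully. The log2 difference was -0.13 ± 0.23 (interval -0.66 to 0.40), and it was above 0 (0.04) with TPM as deposited. The lumbar effect of genotype minus the brachial effect was -0.64 on the log2 scale (interval -1.35 to 0.07, adjusted p = 0.812 by limma), so a difference of *Hrk* between the levels was not shown. In that test 0 of 10 members had an adjusted p under 0.05, as did 0% of all genes, and 0 of 10 had an unadjusted p under 0.05 against 4.42% of all genes. For the other nine members the 95% intervals of this difference ran from -0.69 to 0.52.

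*Bcl2l11* (Gene ID 12125, chr2:128126038-128162547), which encodes Bim, a BH3-only protein that binds all pro-survival members and is induced by trophic factor withdrawal, had the opposite sign. At the brachial level it was 5.09, 5.56 and 5.74 in Het and 6.41, 7.71 and 7.89 in KO. Every KO library was above every Het library, at a log2 difference of 0.41 ± 0.13 (interval 0.12 to 0.71), or 133% of Het. This was short of the rule's fold limit of 0.5, and limma gave an adjusted p of 0.357. *Bcl2l11* passed the rule, as the only member to do so, without brachial KO replicate 1 (0.51) and with TPM as deposited (0.59). Its lowest value over the alternatives was 0.36, without brachial KO replicate 3, the library that stood apart and held the highest *Bcl2l11*. Of the 16768 genes tested at this level 9.67% had KO above Het without overlap and 10.4% had KO below Het, so such a pattern was common here; of the 10 members 1 was higher (*Bcl2l11*) and 2 were lower (*Bax* and *Bid*). At the lumbar level *Bcl2l11* was 5.87, 6.22 and 4.92 in Het and 6.38, 5.89 and 7.12 in KO, which overlapped (0.19, interval -0.13 to 0.51). The effects at the 2 levels differed by -0.23 (interval -0.62 to 0.17, adjusted p = 0.813 by limma). The span of *Bcl2l11* overlaps that of *Acoxl* on the same strand, and reads of the shared stretch may have been given to either.

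The 3 other BH3-only genes had negative differences at both levels, none of which passed the rule. *Bbc3* (Gene ID 170770, chr7:16308398-16318334) encodes Puma, a target of p53. It was 15.7, 14.7 and 17.7 in brachial Het against 15.0, 13.5 and 11.7 in KO, and 15.0, 13.6 and 14.9 in lumbar Het against 16.3, 11.4 and 8.98 in KO. The genotypes overlapped at both levels, with differences of -0.26 (interval -0.54 to 0.02) and -0.29 (interval -0.74 to 0.16), and lumbar KO replicate 1 was above the lumbar Het range. Without that library *Bbc3* passed the lumbar rule at -0.52, and without lumbar KO replicate 3 its difference was -0.09.

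*Bid* (Gene ID 12122, chr6:120893119-120917062) is cut by caspase-8 and carries death receptor signals to mitochondria. It was 17.4, 17.2 and 17.6 in brachial Het and 15.9, 16.8 and 12.9 in KO, and 13.4, 12.1 and 14.3 in lumbar Het and 11.3, 11.95 and 11.7 in KO. In rescaled TPM KO was below Het without overlap at both levels, by -0.20 (interval -0.46 to 0.06) and -0.18 (interval -0.40 to 0.04). With TPM as deposited the brachial genotypes overlapped. Of all genes, 5.52% were lower in lumbar KO without overlap and 4.42% higher, and of the 10 members *Hrk* and *Bid* were lower and none higher. *Bad* (Gene ID 12015, chr19:6941861-6951905), whose protein is held inactive by phosphorylation downstream of growth factors, was 37.5, 36.1 and 36.5 in brachial Het and 36.7, 33.1 and 27.4 in KO. Its lumbar values were nearly level, with 30.7, 31.6 and 32.0 in Het and 31.6, 30.5 and 29.7 in KO. The differences were -0.19 (interval -0.44 to 0.06) and -0.04 (interval -0.20 to 0.12). Brachial KO replicate 3, the library with high blood markers, had the lowest brachial value of *Hrk*, *Bbc3*, *Bid* and *Bad*. Without it the brachial differences were -0.17 for *Bbc3*, -0.09 for *Bid* and -0.08 for *Bad*, and 0.05 for *Hrk*. With TPM as deposited and all libraries kept, they were -0.09 for *Bbc3*, -0.03 for *Bid*, -0.01 for *Bad* and 0.04 for *Hrk*.

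**Figure D2:**
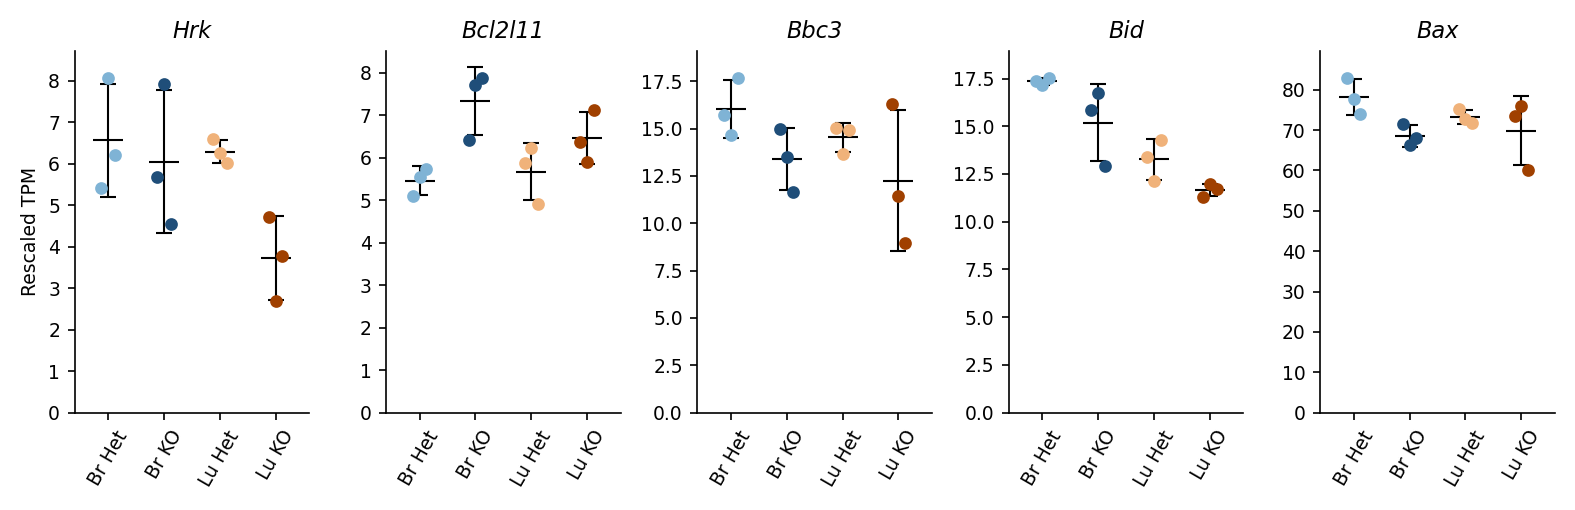
Rescaled TPM of 4 BH3-only genes and of Bax in brachial (Br) and lumbar (Lu) libraries of Isl2 Het and KO embryos; points are libraries, bars are means ± SD (n = 3). Hrk in lumbar KO (2.70 to 4.71) lies under lumbar Het (6.02 to 6.59), and Bcl2l11 in brachial KO (6.41 to 7.89) lies over brachial Het (5.09 to 5.74).

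Of the effectors, *Bax* (Gene ID 12028, chr7:45461695-45466903) was 83.0, 77.7 and 74.1 in brachial Het and 71.6, 66.2 and 68.0 in brachial KO. The genotypes did not overlap, but the difference was small (-0.19 ± 0.07, interval -0.36 to -0.02, adjusted p = 0.357 by limma), and with TPM as deposited it was -0.01. *Bax* and *Bcl2l11* were the 2 of 10 members with an unadjusted p under 0.05 at this level, against 13.9% of all genes, and 0.00596% of genes (1 gene, not a member) had an adjusted p under 0.05. At the lumbar level *Bax* was 75.3, 72.9 and 71.7 in Het and 73.6, 75.9 and 60.1 in KO, which overlapped (-0.08, interval -0.30 to 0.15). *Bak1* (Gene ID 12018, chr17:27019812-27028627), the other pore-forming effector, was 10.3, 10.6 and 8.89 in brachial Het and 11.2, 10.8 and 8.87 in KO, and 9.43, 9.61 and 8.23 in lumbar Het and 9.82, 10.2 and 8.11 in KO. Its differences were 0.05 (interval -0.25 to 0.34) and 0.04 (interval -0.25 to 0.33). The gene lies within the span of *Ggnbp1* on the opposite strand, and whether reads were assigned by strand is not given in the sources used here. Genes on the opposite strand also overlap *Bid* (*Gm17812*), *Bad* (*Gpr137*) and *Bcl2l1* (*Cox4i2* and *Gm32211*), and genes on the same strand overlap *Bcl2* (*Mir3473f* and *Gm37053*), and reads of the shared stretches may have been given to either gene.

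None of the pro-survival genes passed the rule, and all overlapped between genotypes. *Mcl1* (Gene ID 17210, chr3:95656944-95663179), whose protein turns over rapidly, was 97.0, 85.0 and 93.5 in brachial Het against 96.2, 85.1 and 94.2 in KO, and 102, 104 and 104 in lumbar Het against 99.0, 109 and 104 in KO. Its lumbar interval, -0.14 to 0.15, was the narrowest of the 10, and its brachial interval ran from -0.19 to 0.19. *Bcl2* (Gene ID 12043, chr1:106538176-106714290), the founding member, was 6.94 to 8.38 in brachial Het, 7.65 to 9.57 in brachial KO, 6.88 to 7.56 in lumbar Het and 6.41 to 7.09 in lumbar KO. Its differences were 0.13 (interval -0.17 to 0.43) and -0.06 (interval -0.31 to 0.19). *Bcl2l1* (Gene ID 12048, chr2:152758732-152833803), the source of the long pro-survival form Bcl-xL and of a short form by splicing that the gene totals do not separate, was 38.4 to 43.8 in brachial Het, 38.9 to 54.3 in brachial KO, 39.2 to 53.7 in lumbar Het and 37.1 to 47.8 in lumbar KO. Its differences were 0.16 (interval -0.13 to 0.45) and -0.08 (interval -0.40 to 0.24).

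**Figure D3:**
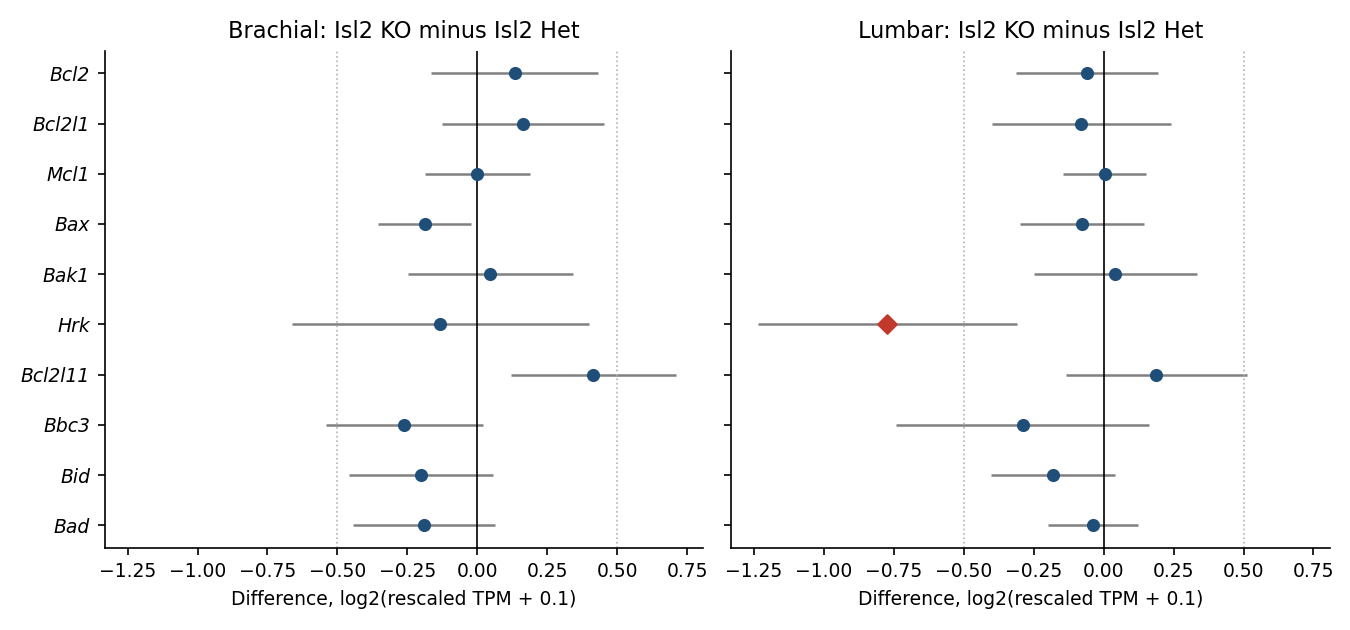
Difference between Isl2 KO and Isl2 Het on the log2(rescaled TPM + 0.1) scale for each gene at the brachial (left) and lumbar (right) levels; points are limma estimates, lines their 95% intervals, dotted lines the fold limit of 0.5. The 1 red diamond, Hrk at the lumbar level (-0.77), passed the rule, and at the brachial level the intervals of Bax and Bcl2l11 leave out 0.

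Across the 10 genes, 0 passed the rule at the brachial level, where 0.871% of all genes were called lower and 2.21% higher, and 1 did at the lumbar level. The median log2 difference of the 10 was -0.07 at both levels, beside -0.01 over all genes. At the brachial level 6 of 10 were below 0, or 4 of 10 with TPM as deposited, a scaling that moved the median of all genes from -0.01 to 0.16. At the lumbar level 7 of 10 were below 0 under this scaling too. All 10 brachial intervals lay between -0.66 and 0.71, and those of the 9 lumbar members other than *Hrk* between -0.74 and 0.51, which leaves out a doubling or a halving of their RNA in whole ventral cord. The summed level of the 5 BH3-only genes was 81.1 to 83.7 in brachial Het and 64.5 to 79.6 in brachial KO, and 69.9 to 72.1 in lumbar Het and 61.3 to 70.3 in lumbar KO, without overlap only at the brachial level. With TPM as deposited the brachial sums overlapped too, and the lowest brachial sum, 64.5, was that of KO replicate 3. The ratio of *Bax* to *Bcl2* was 9.26 to 11.96 in brachial Het and 6.92 to 9.36 in brachial KO, and 9.96 to 10.4 in lumbar Het and 8.55 to 11.8 in lumbar KO, with overlap at both levels.

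Along the cord 9 of 10 members had a negative difference between lumbar and brachial levels, with a median log2 difference of -0.14 beside 0.01 over all genes, and 2 of 10 were called (adjusted p under 0.05, genotype as a covariate). Of the 16698 genes tested 9.62% were called lower and 8.91% higher at the lumbar level. *Bid* was the member called lower, from 16.26 ± 1.75 (SD) brachial to 12.46 ± 1.12 lumbar (-0.38 ± 0.07 on the log2 scale, SE, n = 6 against 6, adjusted p = 0.00299 by limma). *Mcl1* was the member called higher, at 0.18 ± 0.05 (adjusted p = 0.0207 by limma). Its 6 lumbar values (99.0 to 109) were all above its 6 brachial values (85.0 to 97.0), a separation that 3.65% of all genes showed in this direction and 4.67% in the other. The call was lost with TPM as deposited (0.04, adjusted p = 0.649 by limma), and without brachial Het replicate 2 (adjusted p = 0.058) or brachial KO replicate 2 (adjusted p = 0.0519). The other differences were -0.36 for *Hrk*, -0.20 for *Bcl2*, -0.15 for *Bbc3* and *Bad*, -0.13 for *Bak1*, -0.07 for *Bcl2l11*, -0.04 for *Bax* and -0.02 for *Bcl2l1*, none of them called. The value of *Hrk* pools genotypes that were not alike, with means of 6.56 brachial and 6.29 lumbar in Het and of 6.05 and 3.73 in KO. *Bad* was called with TPM as deposited (-0.29) and without brachial KO replicate 3 (-0.21). Cell type markers were not equal at the 2 levels. Of the neural lists, 4 of 10 MN markers were called lower at the lumbar level and 0 higher. Of these 10 MN markers 6 were below 0 and 4 above, with a median log2 difference of -0.09. Among ventral interneuron markers 3 of 6 were called higher, and 5 of 6 ventral progenitor markers were called either lower (2) or higher (3). Of the other lists, 3 of 5 microglia markers and 3 of 5 endothelium markers were called lower. Their part in the level differences was not tested.

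The same questions were put to the rest of the death machinery through lists of related genes. Of 15 other family genes 10 could be tested, and *Bcl2l10*, *Bcl2a1a*, *Bcl2a1d*, *Bik* and *Bcl2l14* were below the filter. In lumbar KO, 1 of the 10 was called, where 0.794% of all genes were called lower and 0.981% higher: *Bcl2l15*, a pro-apoptotic relative also known as Bfk, was 0.846, 0.953 and 0.833 in Het and 0.498, 0.283 and 0.407 in KO (-1.001 ± 0.32, adjusted p = 0.9992 by limma). It too is on the study's list of lumbar genes lower in KO, so the direction is not independent, and its level was below 1 TPM. At the brachial level 0 of 10 were called, while 3 of 10 had an unadjusted p under 0.05 in limma, against 13.9% of all genes. The genes of smallest p there were *Bnip3*, a BH3-like gene of mitophagy (-0.23, interval -0.40 to -0.07), and *Bok*, an effector relative (-0.33, interval -0.56 to -0.09), and at the lumbar level *Bcl2l12* followed *Bcl2l15* (0.26, interval -0.11 to 0.63).

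Among the apoptosome, caspases and their inhibitors 21 of 22 genes were tested (all but *Birc3*), and 0 were called at either level, while 5 brachial and 1 lumbar had an unadjusted p under 0.05 in limma, against 13.9% and 4.86% of all genes. The smallest p at the brachial level belonged to *Cycs*, which encodes cytochrome c (-0.30, interval -0.53 to -0.07), and *Birc6*, a large inhibitor of apoptosis (0.43, interval 0.08 to 0.78). At the lumbar level *Endog*, a mitochondrial nuclease (-0.29, interval -0.56 to -0.01), and the initiator *Casp2* (0.19, interval -0.04 to 0.43) came first. Of the stress signalling genes upstream of the family, 22 of 24 were tested in brachial and 21 in lumbar cord, and 1 was called higher at each level, where 2.21% and 0.981% of all genes were. An unadjusted p under 0.05 in limma was found for 3 brachial and 1 lumbar gene of this list, near the 13.9% and 4.86% of all genes. *Map3k13*, a kinase upstream of JNK, was 6.69, 6.52 and 4.76 in brachial Het and 6.93, 8.11 and 13.9 in brachial KO (0.63 ± 0.26), and its highest value was in brachial KO replicate 3. *E2f1*, a cell cycle transcription factor that can induce BH3-only genes, was 2.14, 2.81 and 2.43 in lumbar Het and 4.25, 2.71 and 5.75 in lumbar KO (0.70 ± 0.27), so that the genotypes overlapped. The JNK gene of neurons, *Mapk10* (0.34, interval 0.08 to 0.59), had the smallest p among the brachial genes of this list, and *Fos* (-0.65, interval -1.34 to 0.04) followed *E2f1* at the lumbar level.

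Of 12 death receptors and adaptors 7 could be tested, and 0 were called at either level, with an unadjusted p under 0.05 in limma for 1 in brachial and 0 in lumbar cord, against the same 13.9% and 4.86%. *Tradd*, an adaptor of the TNF receptor, was 8.13, 7.26 and 7.85 in brachial Het and 6.74, 5.55 and 5.94 in KO (-0.35, interval -0.63 to -0.07), and at the lumbar level its difference was 0.17 (interval -0.17 to 0.51). *Tnfrsf1a* was next at the brachial level (0.54, interval -0.06 to 1.13) and *Ripk1* at the lumbar level (0.12, interval -0.25 to 0.48). Between the levels of the cord 11 of the 60 genes tested in these 4 lists were called, or 18.3%, near the 18.5% of all genes. *Bcl2l12*, *Casp2*, *Birc5* (survivin, a gene of dividing cells) and *E2f1* were higher at the lumbar level, by 0.41, 0.22, 0.83 and 0.87 on the log2 scale. Those lower included *Vdac1* (-0.21), *Cdkn1a* (-0.63), *Mapk9* (-0.30), *Map3k5* (-0.71), *Tradd* (-0.49) and *Tnfrsf21* (-0.20).

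**Figure D4:**
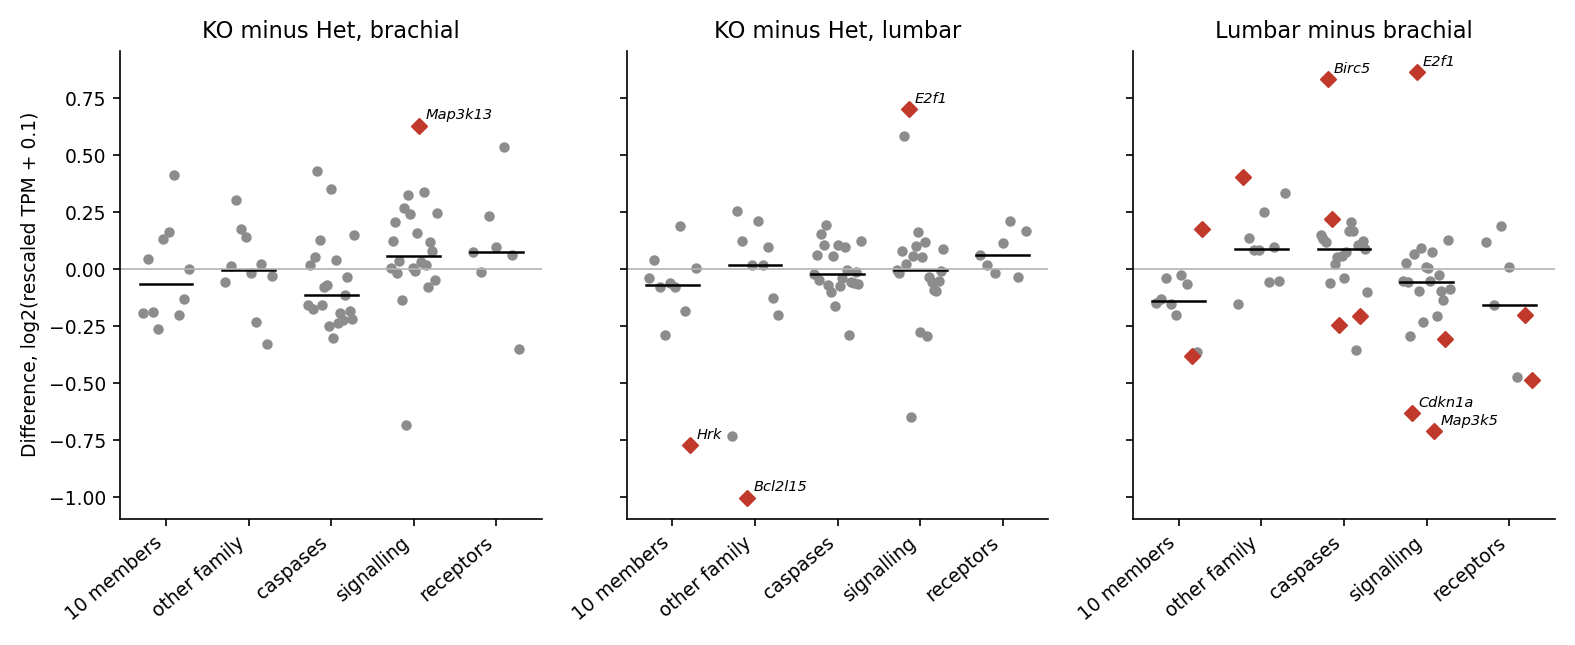
Log2 differences of the 10 members and of 4 lists of related genes (other family; apoptosome, caspases and inhibitors; stress signalling; death receptors and adaptors) for KO minus Het at each level and for lumbar minus brachial; points are genes, bars list medians, red diamonds genes past the call rule of that comparison. Between genotypes the diamonds are Map3k13 (brachial), Hrk, Bcl2l15 and E2f1 (lumbar), and in the level panel names are given only beyond 0.6.

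The genes most like *Hrk* over the 12 libraries were taken by Pearson's r of their log2 levels, among 14939 genes with a mean of at least 1 TPM. They were *Ppp2r2b*, a regulatory subunit of protein phosphatase 2A (r = 0.928), *Ust*, a uronyl sulfotransferase (0.918), *Stx3*, a syntaxin (0.904), *Amph*, amphiphysin of synaptic vesicle endocytosis (0.899), and *Elmod1* (0.898). The 12 points share 4 groups, so r includes the differences between them. *Ppp2r2b* was 57.7 to 63.4 in lumbar Het and 37.0 to 54.4 in lumbar KO, and like *Hrk* it was lowest in lumbar KO replicate 2. Since the 5 genes were chosen to follow *Hrk*, their lower level in lumbar KO (-0.19 to -0.85 on the log2 scale) is fixed by the choice.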

How the data were processed

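Total RNA of 12 libraries was depleted of ribosomal RNA (TruSeq Stranded Total RNA, Ribo-Zero) and sequenced. Per the labels, the authors used Trimmomatic 0.38, HISAT2 2.1.0, Bowtie2 2.3.4.1 and StringTie 2.1.3b with mm10. The TPM, FPKM and coverage columns are deposited output of StringTie; without counts, DESeq2 could not be run. Depth was read from the ratio of deposited coverage to FPKM. Symbols came from RefSeq (GRCm38.p6) for 45679 of 45777 NCBI gene identifiers.

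Each TPM column was divided by its size factor (median of ratios over 19305 genes above 0 in all libraries). The fits used limma 3.58.1 (R 4.3.3, eBayes with trend) on log2(value + 0.1), which understates changes of low genes, over genes with a mean of at least 0.5, with Benjamini-Hochberg adjustment. Each level was fitted alone, and the interaction and the level contrast used 12 libraries. The code was tested on simulated data. Genes of the related lists were named where they passed a call rule or were among the 2 of smallest p per list and level; some that this rule selects are not reported here. Members and lists were chosen with earlier results of these data known. Alternatives were other pseudocounts, filters and scalings, FPKM, coverage, no trend, 1 fit over all libraries, a replicate block, each library left out and, chosen after seeing the data, sex as a term. Plots were drawn with matplotlib 3.10.9 and tables read with Python 3.11.15.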

Additional observations from a re-analysis of the deposited data

How the results depend on the processing

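*Hrk* in lumbar cord passed the call rule under every alternative, with log2 differences from -0.95 to -0.56; with sex as a term, chosen after seeing the data, it was -0.88. The count of members called in the interaction was 0 throughout. With TPM as deposited the brachial count was 1 in place of 0 (*Bcl2l11*, 0.59), and *Mcl1* (0.18) and *Hrk* (0.041) changed sign; with quantile normalization *Mcl1* (0.072) and *Bak1* (-0.0060) did. These members lay near 0, and the cause of each change beyond the shift of the median was not tested. With libraries left out one at a time, the count ranged from 0 to 1 in brachial cord (1 without KO replicate 1), from 1 to 2 in lumbar cord (2 without KO replicate 1) and from 1 to 3 between levels, where it was 1 without brachial Het replicate 2 or KO replicate 2, which cost *Mcl1* its call, and 3 without brachial KO replicate 3, which added *Bad* (-0.21). Brachial differences that changed sign ranged from -0.055 to 0.054 for *Mcl1*, from -0.031 to 0.15 for *Bak1* and from -0.34 to 0.050 for *Hrk*. Lumbar ones ranged from -0.17 to 0.059 for *Bcl2l1*, from -0.030 to 0.039 for *Mcl1*, from -0.14 to 0.029 for *Bax* and from -0.028 to 0.14 for *Bak1*, and level ones from -0.099 to 0.040 for *Bcl2l1* and from -0.072 to 0.0027 for *Bax*. Same-numbered Het and KO libraries did not deviate together (correlations of 0.08, 0.229 and 0.0096 brachial, and 0.144, -0.209 and -0.094 lumbar), and they were not treated as pairs. Nor were brachial and lumbar libraries of 1 number and genotype, whose correlations ran from -0.214 to 0.338 over 6 pairs; the 2 over 0.1 (Het 2 and 3, at 0.197 and 0.338) were of the same sex, and 3 of the 6 pairs differed in sex. The replicate block left 0 members called in brachial and 1 in lumbar cord, and between levels it left 1 (*Bid*), with *Mcl1* at 0.18 and an adjusted p of 0.0616 by limma. Background counts moved more: brachial calls went from 146 lower and 371 higher to 47 and 1211 with TPM as deposited, to 285 lower without a filter, to 91 lower at a pseudocount of 1, to 336 and 1046 without KO replicate 1, and to 147 and 142 higher without KO replicate 3 and Het replicate 3. Lumbar calls went from 132 lower and 163 higher to 288 and 332 without a filter, to 76 and 103 at a pseudocount of 1, to 225 lower with sex as a term and to 303 higher without KO replicate 2. Level calls went from 1488 higher to 646 with TPM as deposited, and to 940 and 978 without brachial Het or KO replicate 2. Without counts, the counting error of a single library is unknown.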
